A study of Mus musculus with 21 samples.

Results

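The 37 genes described here encode the enzymes and transporters of glycolysis and the parts of the hypoxia response that act around it: glucose and lactate carriers, the enzymes from hexokinase to lactate dehydrogenase, the subunits of the hypoxia-inducible factors (HIFs), the proteins that sense oxygen and mark HIF for destruction, and further HIF targets. They were chosen by symbol from a fixed list, and all 37 were found in the tables of both cell types, among 25035 genes listed in either. The samples were lung cells of Col1a2-GFP Transgenic mice of the C57BL/6 strain, in which a collagen gene promoter marks fibroblasts with green fluorescent protein. Every group, of both cell types, had this genotype. Epithelial cells were sorted as negative for CD31, CD45, CD146 and Ter119 and positive for Epcam, with GFP-negative cells gated, and fibroblasts as negative for the same 4 surface proteins and for Epcam and positive for GFP, so fibroblasts that do not express the transgene were not collected. Both were collected at embryonic day 18.5 (E18.5) and at postnatal days 0.5, 2, 7 and 28 (P0.5, P2, P7 and P28) with 2 libraries each, and fibroblasts also at day 56 (P56) with 1 library, 21 libraries in all. The step from E18.5 to P0.5 spans birth and the move to air breathing.

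Glycolysis splits glucose into pyruvate in the cytosol and can yield ATP without oxygen when lactate dehydrogenase turns pyruvate into lactate. HIF is a pair of proteins, an oxygen-regulated alpha subunit (HIF-1 alpha, encoded by Hif1a, HIF-2 alpha, encoded by Epas1, or HIF-3 alpha, encoded by Hif3a) and a stable partner encoded by Arnt. In the presence of oxygen, prolyl hydroxylases encoded by Egln1, Egln2 and Egln3 modify the alpha subunit, and the product of Vhl then targets it for degradation. When oxygen is low the pair binds DNA at elements with the core ACGTG or GCGTG and raises transcription of many glycolytic genes, and also of Egln3, which feeds back on the pathway. The fetal lung is filled with fluid and develops at low oxygen, and HIF-2 alpha is known for its part in the maturation of the surfactant-producing epithelium. The control of HIF alpha by oxygen acts on the protein, which was not measured here.

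Promoters are shown for 5 genes that the results turn on: Egln3 and Hif3a, which were lower at P28 than at E18.5 in both cell types, Pgam1, which fell across birth in both, and Hk2 and Slc2a1, whose changes differed between the cell types. Each is the 250 bases before the RefSeq start of the gene (GRCm38.p6), written 5′ to 3′ on the gene's strand, with ACGTG or GCGTG in capitals where it was found as printed, and CACGT or CACGC in capitals where it was found on the opposite strand.
Egln3 (chr12:54203875-54204124, minus strand): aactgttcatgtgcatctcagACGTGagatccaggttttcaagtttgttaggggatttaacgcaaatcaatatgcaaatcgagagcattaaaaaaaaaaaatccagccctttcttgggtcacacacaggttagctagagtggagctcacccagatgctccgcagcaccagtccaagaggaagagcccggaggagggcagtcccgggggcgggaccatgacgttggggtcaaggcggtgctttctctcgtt
Hif3a (chr7:17062428-17062677, minus strand): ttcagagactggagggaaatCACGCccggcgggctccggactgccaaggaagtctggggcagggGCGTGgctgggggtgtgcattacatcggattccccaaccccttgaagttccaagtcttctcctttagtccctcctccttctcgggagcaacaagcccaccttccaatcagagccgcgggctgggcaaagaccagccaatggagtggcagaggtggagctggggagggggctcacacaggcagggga
Pgam1 (chr19:41911621-41911870, plus strand): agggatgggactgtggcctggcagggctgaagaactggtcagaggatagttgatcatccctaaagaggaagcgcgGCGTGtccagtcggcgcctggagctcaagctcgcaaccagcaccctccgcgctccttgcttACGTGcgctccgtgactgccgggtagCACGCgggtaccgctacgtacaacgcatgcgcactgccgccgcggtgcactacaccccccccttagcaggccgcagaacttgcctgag
Hk2 (chr6:82774455-82774704, minus strand): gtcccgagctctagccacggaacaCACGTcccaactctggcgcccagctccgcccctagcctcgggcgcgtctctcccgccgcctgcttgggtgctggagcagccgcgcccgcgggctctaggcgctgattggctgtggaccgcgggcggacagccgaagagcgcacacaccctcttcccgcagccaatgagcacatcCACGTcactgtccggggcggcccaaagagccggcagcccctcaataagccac
Slc2a1 (chr4:119108495-119108744, plus strand): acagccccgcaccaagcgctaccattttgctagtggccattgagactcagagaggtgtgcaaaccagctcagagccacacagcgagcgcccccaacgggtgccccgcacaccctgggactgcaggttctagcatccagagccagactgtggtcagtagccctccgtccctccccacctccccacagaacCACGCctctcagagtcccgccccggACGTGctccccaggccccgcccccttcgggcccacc

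In Egln3 the single match begins 229 bases before the start, and in Hif3a the 2 matches begin 230 and 186 bases before it. In Pgam1 the 3 matches begin at 175, 114 and 88 bases, in Hk2 the 2 at 226 and 52, and in Slc2a1 the 2 at 61 and 36. Eno2, whose change from E18.5 to P28 also differed between the cell types, had neither motif in its window and is not shown. The promoter table had an entry for 35 of the 37 genes, without Epas1 and Ndrg1. A gene with several annotated starts has several windows and was counted if any of them held the motif, so shares also depend on the number of starts. ACGTG, on either strand, was in a window of 20 of the 35 genes (57.1%). It was in 24.4% of the 9666 tested genes with an entry and 18.5% of all 27025 genes with an entry. GCGTG was in a window of 68.6% of the 35, against 48.8% of the tested genes and 30.9% of all genes with an entry. Either motif was in 88.6%, 59.9% and 41.5%. These matches describe the letters in the window and are not binding sites, and many of the 35 genes were included as known HIF targets.

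The measurement was 3′ tag sequencing, which counts short tags from the 3′ ends of polyadenylated RNA, so levels are not comparable between genes. Values are deposited tag counts divided by 1 scale factor per library, and 3 reads were worth 0.403 to 1.37 in these units. Each library held 2146071 to 5729829 reads. RNA was amplified before sequencing and tags carried no molecular identifier, so read-based intervals cover counting error only. The labels do not say that the 2 libraries of a group came from separate animals, so p-values measure the spread between these libraries, which may be technical. The P56 library stood apart, with 1 sample and a summed erythroid marker value of 0.134 where every other fibroblast library had at least 93.7. Of the last 300 bases of the longest coding transcript, 91.5% of the 30-base stretches of Gapdh and 90.8% of those of Eno1 also occur in other annotated genes, so the counts of these 2 genes are uncertain. The corresponding share was at most 18.5% in the other members. Changes are differences in log2(value + 1), with standard errors, from limma fitted across all stages of a cell type, with Benjamini-Hochberg adjusted p-values over all genes tested and a threshold of 0.05. "Rose" and "fell" are used for changes past it. Of the 37 genes, 35 passed the filter on low values in epithelium (not Pfkm and Ankrd37) and 34 in fibroblasts (not Aldoc, P4ha2 and Ankrd37). In these sorted bulk samples fewer cells of a type and less RNA per cell cannot be told apart.

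Across birth in epithelium, 11 of the 35 tested members fell and 1 rose, while 7.09% of all 12143 genes tested were called lower and 7.24% higher. The median change of the members was -0.63, and that of all genes -0.02. Among the glycolytic enzymes 6 of 14 fell, and the other 8 did not pass the threshold.

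Pgam1, the phosphoglycerate mutase that moves the phosphate late in the pathway (gene at chromosome 19, 41911923 to 41918660, GRCm38), measured 813 and 884 at E18.5 and 241 and 303 at P0.5 in epithelium. The groups did not overlap, and the change was -1.65 (SE 0.19, limma adjusted p = 0.00015). Pfkp, the platelet form of phosphofructokinase, was 23.4 and 19.6 before birth and 5.88 and 5.66 after it, a change of -1.73 (SE 0.35, limma adjusted p = 0.00573). Hk2, the inducible hexokinase that starts the pathway (chromosome 6, 82725025 to 82774454), went from 62 and 78.6 to 37.5 and 29.1, a change of -1.06 (SE 0.21, limma adjusted p = 0.00524). Each of these 3 enzymes had both P0.5 libraries below both E18.5 libraries.

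The aldolase gene Aldoa read 2911 and 3075 in the E18.5 epithelium and 1362 and 1821 at P0.5, a change of -0.93 (SE 0.22). Pgk1, which makes the first ATP of the pathway, went from 49.3 and 48.3 to 25 and 24.6, a change of -0.95 (SE 0.25). Ldha, the lactate dehydrogenase subunit that favours lactate formation, went from 151 and 186 to 114 and 68.7, a change of -0.91 (SE 0.24). All 3 pairs of groups were separate. Gapdh, with the uncertainty given above, fell by 0.84, and Slc16a3, the lactate exporter MCT4, fell by 1.12. The limma adjusted p of these 5 genes was 0.0121 to 0.0433.

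The other epithelial members that fell across birth were the oxygen sensing genes Egln3 and Egln1 and Ndrg1, a stress-response gene and HIF target. Egln3, whose promoter is printed above, was 15.3 and 14.8 at E18.5 and 3.3 and 3.39 at P0.5, a change of -1.88 (SE 0.42, limma adjusted p = 0.00939). Egln1, the main HIF prolyl hydroxylase, was 129 and 124 and then 77.8 and 76.9, a change of -0.70 (SE 0.20). Ndrg1 went from 48.7 and 43.9 to 22.4 and 24.3, a change of -0.96 (SE 0.29). The 1 member that rose was Epas1, from 8.76 and 6 to 15.8 and 15.3, a change of 1.0 (SE 0.27, limma adjusted p = 0.0221). Hif1a did not pass, with 50.6 and 68.8 before and 63.9 and 43.3 after birth (limma adjusted p = 0.726).

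The number of epithelial calls across birth leaned on single libraries. It was 12 with all libraries, 7 without E18.5 replicate 1, 4 without E18.5 replicate 2, 4 without P0.5 replicate 1 and 3 without P0.5 replicate 2. Pgam1 and Pfkp kept their calls without any 1 of these, and the other 10 reached a highest limma adjusted p of 0.0722 to 0.319. DESeq2 did not call Epas1 or Gapdh, and with no filter Gapdh, Ldha, Ndrg1 and Slc16a3 were not called. Between the same groups the summed value of the 8 endothelial markers went from 32.8 to 59.4 at E18.5 to 6.24 to 8.48 at P0.5, with Pecam1 and Cdh5 at 0 reads at E18.5. The sum of 10 dissociation stress genes went from 15534 to 16622 down to 9012 to 10994, while 3 of them were called higher and 3 lower and their median change was 0.26. That of 7 erythroid genes went from 799 to 2878 up to 4097 to 6174, and that of 4 mesothelial genes from 429 to 444 down to 200 to 247, with Upk3b and Lrrn4 at 0 reads in both groups. The part of these in the member changes was not tested.

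In fibroblasts, 4 of 34 tested members fell and 2 rose across birth, against 7.34% and 8.05% of all 11954 genes tested. Pgam1 fell here too, from 643 and 657 at E18.5 to 212 and 256 at P0.5, a change of -1.48 (SE 0.22, limma adjusted p = 0.000164). P4ha1, the catalytic subunit of the hydroxylase that modifies collagen prolines, went from 310 and 347 to 154 and 171, a change of -1.01 (SE 0.17, limma adjusted p = 0.000597). In both genes the 2 groups were well apart. Pkm, pyruvate kinase, fell by 1.05 and Aldoa by 0.58. Ndrg1 rose by 1.18 (SE 0.34), from 14.6 and 8.96 to 27.4 and 27, and Pfkfb3, which makes the activator of phosphofructokinase, rose by 1.0 (SE 0.30). The count of 6 became 5 without E18.5 replicate 1 and 2 without E18.5 replicate 2, P0.5 replicate 1 or P0.5 replicate 2. Pgam1 and P4ha1 stayed past the threshold without any 1 of the 4 libraries, and the other 4 genes reached a highest limma adjusted p of 0.159 to 0.298. With no filter Aldoa, Ndrg1 and Pfkfb3 were not called, Aldoa also not with TMM scaling or edgeR, and Pfkfb3 and Pkm not by DESeq2. Between these groups 7 of 10 dissociation stress genes were higher and 2 lower (median 1.51), with sums of 16970 to 28345 and then 23008 to 23323. The summed erythroid markers went from 629 to 894 up to 2739 to 3592, with 4 of 6 tested genes higher. The part of these in the member changes was not tested.

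**Figure D1:**
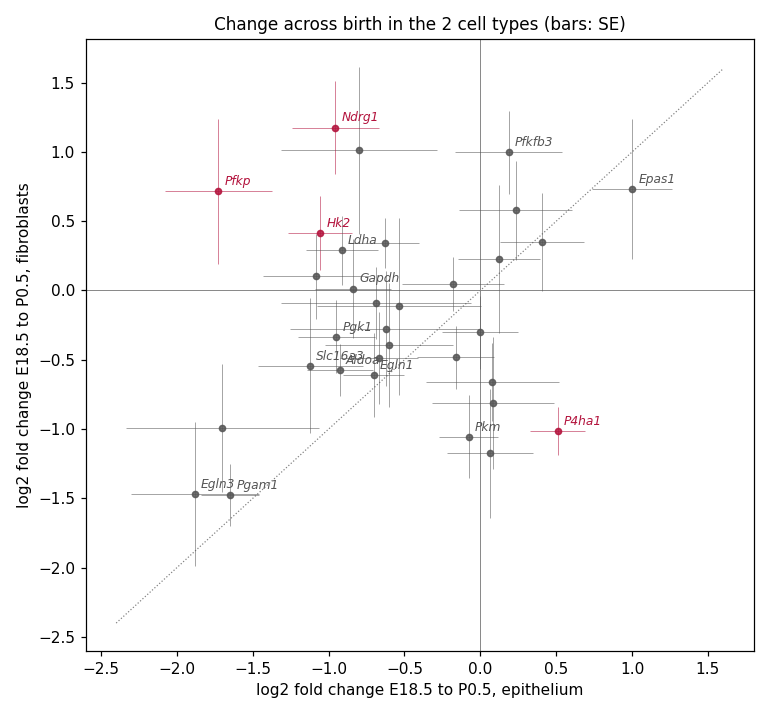
Change from E18.5 to P0.5 in epithelium (x axis) and fibroblasts (y axis) as log2 fold change on the log2(value + 1) scale, for members tested in both cell types, with SE bars, from 2 libraries a group. Pgam1 and Egln3 lie at lower left near the dotted line of equal change, and the 4 genes in red (P4ha1, Ndrg1, Hk2 and Pfkp) had a change that differed between the cell types.

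The difference between the cell types was tested directly as an interaction, on recovered reads of 20 libraries scaled together. At birth 4 of 36 tested members differed. P4ha1 had the more positive change in epithelium, and Ndrg1, Hk2 and Pfkp the more negative, against 1.55% of all 13386 genes in the first direction and 1.97% in the second. For P4ha1 the difference of the 2 changes was 1.51 (SE 0.23, limma adjusted p = 0.00109). Its epithelial values were 681 and 687 before and 958 and 992 after birth, the opposite order to the fibroblasts. Ndrg1 differed by -2.14 (SE 0.46, limma adjusted p = 0.0115), falling in epithelium and rising in fibroblasts. Hk2 differed by -1.48 (SE 0.36), with 50.8 and 30.3 before and 50.3 and 55 after birth in fibroblasts, where the groups overlapped. Pfkp differed by -2.42 (SE 0.61), with fibroblast values of 1.4 and 0 before and 1.26 and 1.87 after birth, near the value of 3 reads. Without 1 library the count was 4, 2, 1 and 2 for epithelial E18.5 replicates 1 and 2 and P0.5 replicates 1 and 2, and 5, 1, 2 and 1 for the same fibroblast libraries. P4ha1 alone stayed past the threshold in all 8 of these fits, and Hk2, Ndrg1 and Pfkp reached a highest limma adjusted p of 0.0651 to 0.144. Pfkp was also not called by edgeR or DESeq2, or with no filter. In the same interaction all 10 dissociation stress genes had a negative difference (median -1.02), and 4 were called lower, the direction of Ndrg1, Hk2 and Pfkp. Their part was not tested.

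Over the whole span from E18.5 to P28 the HIF subunits moved apart from each other. Epas1 (chromosome 17, 86753700 to 86833410) rose in both cell types, Hif3a (chromosome 7, 17031507 to 17062427) fell in both, and Hif1a rose in epithelium. In epithelium Epas1 was 15.8 and 15.3 at P0.5, 21.9 and 20.4 at P2, 20.2 and 18.5 at P7 and 49 and 54.4 at P28, each group above the E18.5 libraries. The change from E18.5 to P28 was 2.67 (SE 0.27, limma adjusted p = 8.01e-06). In fibroblasts Epas1 was 0.281 and 0.427 at E18.5, which is 2 reads in all. It was 1.89 and 0.749 at P0.5, 0.711 and 0 at P2, 1.05 and 2.09 at P7, 9.74 and 11.2 at P28 and 18.8 at P56. The P28 level was 30.6-fold that of E18.5, with an exact 95% counting interval of 8.1 to 258, and the fitted change was 3.08 (SE 0.51, limma adjusted p = 0.000106). Fibroblast levels of Epas1 were thus near the limit of 3 reads up to P7 and above it at P28.

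Hif3a encodes the alpha subunit whose short forms can restrain the other HIFs. It measured 30.8 and 33.5 at E18.5 in epithelium, 10.3 and 8.2 at P0.5, 0 and 3.62 at P2, 1.31 and 0 at P7 and 2.7 and 0.864 at P28. Fibroblasts gave 41.6 and 32, then 19.8 and 16.1, 1.78 and 1.64, 1.31 and 0, and 2.66 and 1.99 at the same stages, and 0.806 at P56. In both cell types all later libraries were below both E18.5 libraries. The step across birth did not pass the threshold in either (limma adjusted p = 0.0889 in epithelium and 0.164 in fibroblasts). The step from P0.5 to P2 did, with -2.24 (SE 0.64) in epithelium and -2.80 (SE 0.46) in fibroblasts. The epithelial call at this step was lost with a pseudocount of 0.5, with no filter, with edgeR, with DESeq2 (adjusted p = 0.362) and with the replicate block (adjusted p = 0.0513). The change from E18.5 to P28 passed in both, with -3.66 (SE 0.64) and -3.50 (SE 0.46).

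Hif1a in epithelium was 122 and 112 at P2, 96 and 152 at P7 and 102 and 117 at P28, all above the E18.5 libraries. It rose from P0.5 to P2 by 1.14 (SE 0.25, limma adjusted p = 0.016) and from E18.5 to P28 by 0.87 (SE 0.25, limma adjusted p = 0.0216). In fibroblasts it was 122 and 76.3 at E18.5, 74.9 and 63.3 at P0.5, 118 and 136 at P2, 156 and 123 at P7, 95.1 and 92.1 at P28 and 76.9 at P56. There it rose from P0.5 to P2 by 0.87 (SE 0.23, limma adjusted p = 0.0124), and from E18.5 to P28 the groups overlapped, with a change of -0.04 (SE 0.23, limma adjusted p = 0.904). Arnt, the shared partner, rose in fibroblasts from 91.9 and 78.6 at P0.5 to 172 and 183 at P2, and measured 178 and 141 at P28. In epithelium Arnt was between 40.9 and 86.3 in all 10 libraries, with no call at any step.

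Egln3 (chromosome 12, 54178981 to 54203860) was also highest at E18.5 in both cell types. Epithelial values were 5.47 and 3.96 at P2, 0.56 and 0.28 at P7 and 0 and 0.288 at P28, which is 1 read over both P28 libraries against 94 at E18.5. The E18.5 level was 91.1-fold that of P28, with an exact 95% counting interval of 16.0 to 3638, and the fitted change was -3.82 (SE 0.42, limma adjusted p = 2.11e-05). In fibroblasts Egln3 was 23.6 and 16.6 at E18.5, 7.55 and 5.62 at P0.5, 0.355 and 2.74 at P2, 0.788 and 1.67 at P7, 2.07 and 2.39 at P28 and 0 at P56. The P28 change there was -2.69 (SE 0.52, limma adjusted p = 0.000513), while the step across birth missed the threshold (-1.47, SE 0.52, limma adjusted p = 0.0628). Egln1 fell by 0.79 in epithelium to 76.1 and 69.4 at P28. Egln2 and Vhl passed at no step in either cell type.

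**Figure D2:**
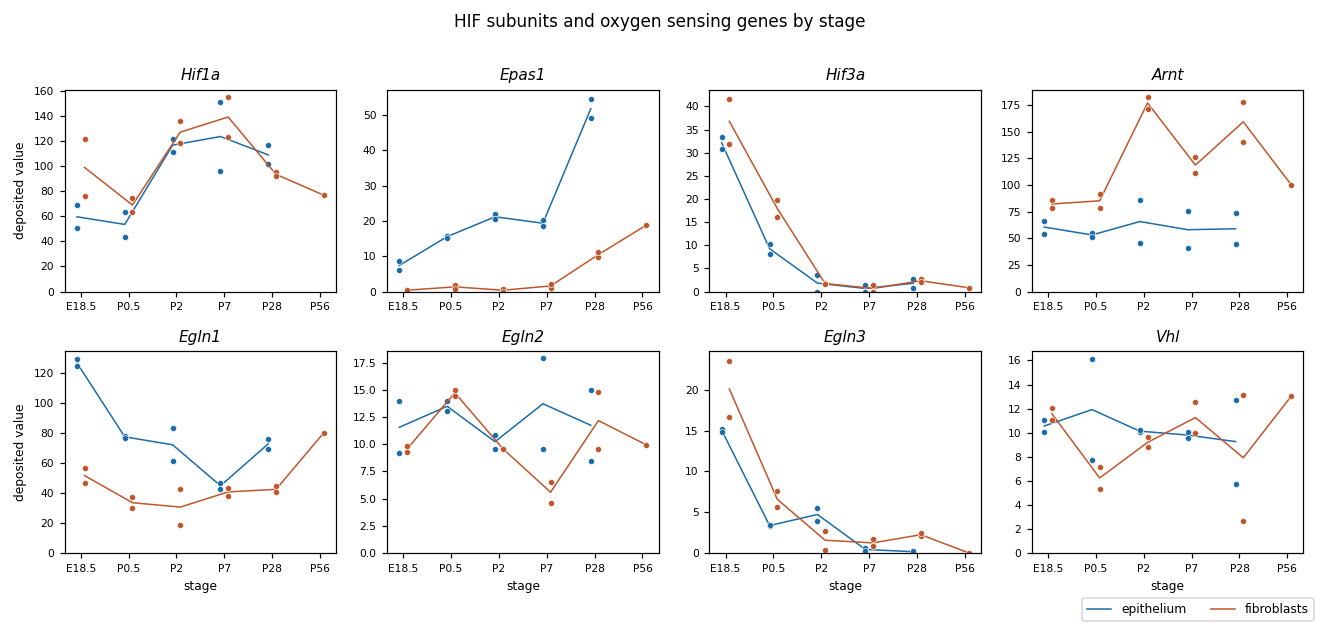
Deposited values (linear y axis, 0 at the bottom) of the 4 HIF subunit genes and 4 oxygen sensing genes by stage, with 1 point per library and lines through the group means, in epithelium (blue) and fibroblasts (orange). Hif3a and Egln3 are highest at E18.5 in both cell types, and Epas1 is highest at P28 in epithelium and at P56 in fibroblasts. The tables of the 2 cell types were scaled separately.

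From E18.5 to P28 in epithelium 3 members rose and 8 fell, against 13.5% and 11.3% of all genes. The members that fell included Pgam1 (376 and 308 at P28, change -1.31, SE 0.19), Ndrg1 (14.7 and 17.6 at P28, change -1.47, SE 0.29), Aldoa, Gapdh and Slc2a1. Slc2a1, the glucose transporter GLUT1 (chromosome 4, 119108711 to 119137983), was 267 and 399 at E18.5, 218 and 204 at P0.5 and 196 and 181 at P28, a change of -0.79 (SE 0.23). Ldha, lower at P0.5, was 85.7 and 115 at P2, 210 and 176 at P7 and 307 and 295 at P28, above E18.5 by 0.84 (SE 0.24, limma adjusted p = 0.0178). The count of 11 was 7 without E18.5 replicate 1, 10 without E18.5 replicate 2, 7 without P28 replicate 1 and 5 without P28 replicate 2. Egln3, Epas1, Hif3a, Ndrg1 and Pgam1 kept their calls in each of these fits, and the other 6 reached a highest limma adjusted p of 0.0682 to 0.207. Over this span 6 of 8 tested leukocyte, 4 of 7 cell cycle and 4 of 10 dissociation stress genes were higher. Of 6 tested mesenchymal genes 5 were lower and 1 was higher. The summed value of all 7 mesenchymal markers went from 369 to 408 at E18.5 up to 2290 to 2364 at P28. The part of these was not tested.

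In fibroblasts the span from E18.5 to P28 raised 12 members and lowered 5, against 18.7% and 14.9% of all genes. The members that rose covered transport, the start and the end of glycolysis. Hk2 was 50.8 and 30.3 at E18.5 and 280 and 228 at P28, a change of 2.66 (SE 0.27, limma adjusted p = 3.64e-07). Slc2a1 went from 169 and 145 to 281 and 230, Eno2, the enolase first known from neurons, from 12.6 and 10.7 to 23.3 and 27.9, and Pkm from 14 and 17.1 to 39.3 and 31.1. Ldha went from 112 and 63.6 to 167 and 181, and Pfkfb3 from 17.7 and 9.81 to 42.8 and 52.2. In each of these 6 genes both P28 libraries were above both E18.5 libraries.

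Hk1, the constitutive hexokinase, had 0 reads in both E18.5 fibroblast libraries and values of 4.72 and 5.98 at P28, at least 10.4-fold higher when E18.5 is set at 3 reads over the group. Pfkp reached 9.15 and 8.77 at P28 (change 2.68, SE 0.52). Slc16a1, the lactate carrier MCT1, was 9.83 and 2.56 at E18.5 and 29.8 and 48.7 at P28 (change 2.66, SE 0.64). Ndrg1 was 46.1 and 25.9 at P28 (change 1.51, SE 0.34). The 5 members that fell were Hif3a, Egln3, Pgam1 (275 and 397 at P28), Bnip3 and Ddit4. Bnip3, a mitophagy receptor and HIF target, went from 82.6 and 102 to 49.6 and 49.9, and Ddit4, a stress-induced inhibitor of mTOR signalling, from 48 and 36.7 to 9.15 and 26.3. The fibroblast count of 17 was 12 to 16 without 1 library, lowest without P28 replicate 1, and Arnt, Egln3, Epas1, Hif3a, Hk1, Hk2, Ndrg1, Pfkfb3 and Pfkp kept their calls throughout. The other 8 reached a highest limma adjusted p of 0.0526 to 0.292. With no filter Bnip3, Ddit4, Ldha and Slc16a1 were not called, and DESeq2 did not call Slc16a1. Over this span 8 of 10 dissociation stress genes were higher (median 1.45). So were 3 of 3 tested mesothelial, 2 of 2 endothelial, 2 of 5 leukocyte, 2 of 6 erythroid and 5 of 7 mesenchymal markers. Lower were 2 of 7 mesenchymal, 2 of 3 tested epithelial and 1 of 7 pericyte and smooth muscle markers. The part of these was not tested.

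The interaction over E18.5 to P28 called 8 of 36 members, all with the more negative change in epithelium, against 9.85% of all genes in that direction and 5.23% in the other. In the other direction limma had 1 member at an unadjusted p under 0.05, and edgeR and DESeq2 called 0. They were Ndrg1 (-3.06, SE 0.46), Hk2 (-2.17, SE 0.36), Slc2a1 (-1.57, SE 0.29), Pfkp (-2.86, SE 0.61), Hk1 (-3.03, SE 0.82), Eno2 (-1.59, SE 0.44), Pkm (-1.08, SE 0.31) and Gapdh (-1.26, SE 0.41), with limma adjusted p of 9.64e-05 for Ndrg1 to 0.0422 for Gapdh. Of these, 6 are glycolytic enzymes, and 14 of the 15 enzymes tested had a negative difference. The median difference was -0.59 over the 15 enzymes and -0.05 over all genes, and the share of all genes with a negative difference was not counted. The 15 include Gapdh and Eno1, whose counts are uncertain, and all were measured in the same libraries. Epithelial Pkm was 61.6 and 64.4 at E18.5 and 71.4 and 66.5 at P28, and epithelial Hk1 was 13 and 6 and then 4.63 and 9.5, where the groups overlapped. Hk2 in the P28 epithelium was 110 and 99.1, a change of 0.57 (SE 0.21) that missed the threshold (limma adjusted p = 0.0649). Without epithelial E18.5 replicate 1 the count was 5, and without 1 of the other 7 libraries 6 to 8. Hk2, Ndrg1, Pfkp and Slc2a1 kept their calls in every such fit, and the other 4 reached a highest limma adjusted p of 0.0706 to 0.152. Gapdh was not called by edgeR or DESeq2, or with no filter. In this interaction 4 of 10 dissociation stress genes and 5 of 7 mesenchymal markers were called in the same direction as the 8 members. In the other direction 1 mesenchymal marker was called. The part of these lists was not tested. The birth and P28 comparisons share the E18.5 libraries.

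**Figure D3:**
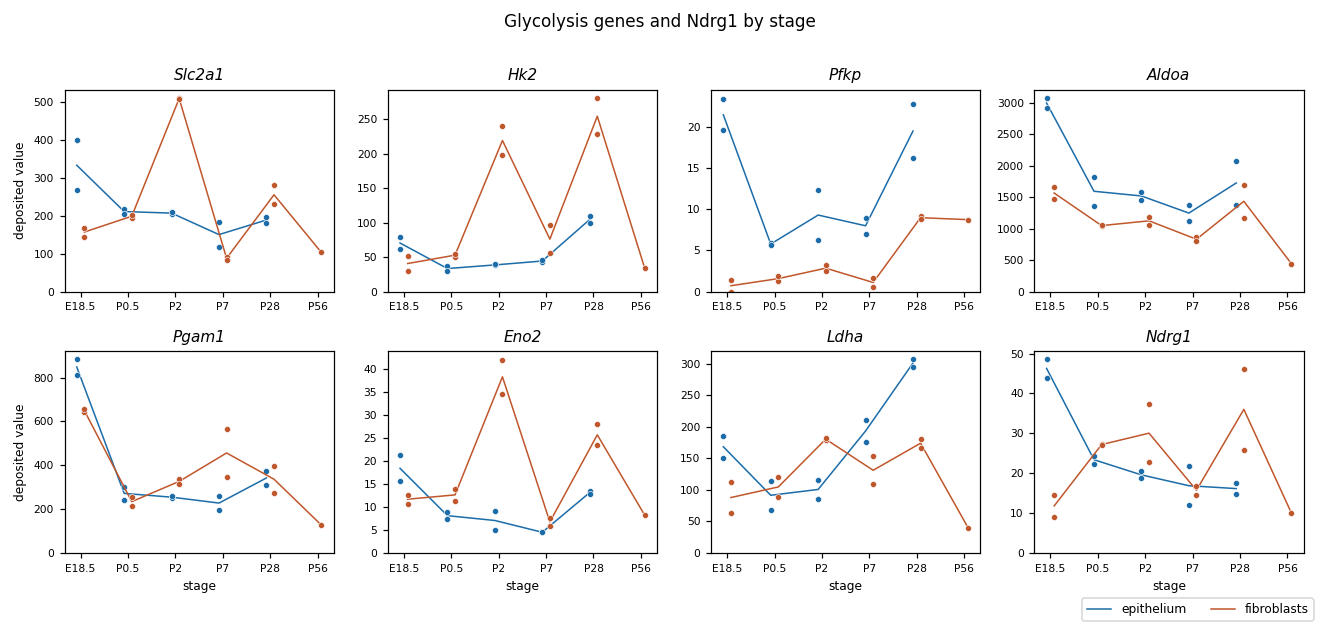
Deposited values (linear y axis, 0 at the bottom) of 7 glycolysis genes and Ndrg1 by stage, 1 point per library with lines through group means, in epithelium (blue) and fibroblasts (orange), each scaled separately. Fibroblast Slc2a1, Hk2 and Eno2 are high at P2 and P28 and low at P7, and Pgam1 is highest at E18.5 in both cell types.

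Between birth and P28 the fibroblast genes for glucose uptake and its first step moved up, down and up again. Slc2a1 was 195 and 203 at P0.5, 511 and 507 at P2, 91.4 and 83.9 at P7 and 281 and 230 at P28. Hk2 was 50.3 and 55, 240 and 198, 55.4 and 96.5, and 280 and 228 at the same stages. Eno2 was 11.3 and 13.9, 34.5 and 42, 7.62 and 5.85, and 23.3 and 27.9. For all 3 genes both P2 libraries lay above all P0.5 and P7 libraries, and all 3 steps passed the threshold.

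From P0.5 to P2, 9 fibroblast members rose and 4 fell, against 9.74% and 7.2% of all genes. Hk2 rose by 2.03 (SE 0.27), Slc2a1 by 1.35 (SE 0.18), Eno2 by 1.53, Arnt by 1.05, Pgk1 by 1.04, Hif1a by 0.87, P4ha1 by 0.80, Ldha by 0.80 and Slc16a1 by 2.31, while Bnip3 fell by 1.91 (SE 0.27), Ddit4 by 1.88, Hif3a by 2.80 and Egln3 by 1.74. Bnip3 went from 79.9 and 69.2 to 20.3 and 17.8. Slc16a1 went from 14.5 and 1.12, the second being 3 reads, to 24.2 and 31. With no filter Ddit4, Egln3, Hif1a, Ldha and Slc16a1 were not called, and DESeq2 did not call Egln3 or Slc16a1. The count was 10 without P0.5 replicate 1 or P2 replicate 2 and 7 without P0.5 replicate 2 or P2 replicate 1. Arnt, Bnip3, Eno2, Hif3a, Hk2 and Slc2a1 kept their calls in all 4 fits, and the other 7 reached a highest limma adjusted p of 0.0565 to 0.395. At this step 3 of 8 tested cell cycle genes (median 1.41) and 2 of 7 pericyte and smooth muscle markers were higher, and 4 of 10 dissociation stress genes were lower and 2 higher. The part of these was not tested.

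From P2 to P7, 1 fibroblast member rose and 4 fell, against 2.36% and 4.28% of all genes. Slc2a1 fell by 2.53 (SE 0.18, limma adjusted p = 3.41e-07), Eno2 by 2.35 (SE 0.31), Hk2 by 1.56 (SE 0.27) and P4ha1 by 0.81 (SE 0.17), and Ddit4 rose by 1.55 (SE 0.41). The count of 5 was 3 without P2 replicate 1 and 4 or 5 without another library. Without 1 library P4ha1 and Ddit4 reached a highest limma adjusted p of 0.109 to 0.333. The summed erythroid markers were 2739 to 3592 at P0.5, 2179 to 4238 at P2 and 93.7 to 181 at P7. From P2 to P7, 4 of 6 tested erythroid genes were lower (median -4.30). The summed cell cycle markers were 60.1 to 108 at P2 and 176 to 180 at P7. The part of these was not tested.

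From P7 to P28, 12 fibroblast members rose and none fell, against 11.3% and 9.49% of all genes, and the median member change was 0.56. At an unadjusted p under 0.05 limma had 1 lower member, and edgeR and DESeq2 called 0. Slc2a1 rose by 1.53 (SE 0.18), Hk2 by 1.78 (SE 0.27), Eno2 by 1.79 (SE 0.31), P4ha1 by 0.82 (SE 0.17), Pfkp by 2.30, Epas1 by 2.18, Pkm by 1.28, Bnip3 by 1.11, Aldoa by 0.76, Slc16a3 by 1.62, Ndrg1 by 1.09 and Adm, the gene of the vasodilator adrenomedullin, by 0.86. The count was 9 to 12 without 1 library, with Slc2a1, Hk2, Eno2 and P4ha1 kept throughout and the other 8 at a highest limma adjusted p of 0.0514 to 0.282. Leukocyte markers in fibroblasts summed to 1.25 to 8.67 at P7 and 41.6 to 125 at P28, and dissociation stress genes to 14984 to 21922 and 34421 to 34465. Erythroid markers summed to 93.7 to 181 at P7 and 657 to 2876 at P28, with 4 of 6 tested genes higher. Of 8 tested cell cycle genes 4 were lower. The part of these in the member changes was not tested.

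In epithelium the later steps moved few members. From P0.5 to P2, Hif1a and Slc16a1 rose and Hif3a fell, 2 and 1 of 35 against 5.13% and 3.69% of all genes. Slc16a1 went from 55.5 and 52.9 to 238 and 271, a change of 2.21 (SE 0.54), but was 62.2 and 280 at P7, where the 2 replicates differed widely. The count was 0 without P0.5 replicate 2 or P2 replicate 1 and 2 without the others, and the 3 genes reached a highest limma adjusted p of 0.148 to 0.295. At this step 2 of 6 tested mesenchymal markers were higher, and of 10 dissociation stress genes 2 were higher and 1 lower. From P2 to P7, Ldha rose by 0.95 and Pgk1 by 1.08 and Egln3 fell by 2.00, 2 and 1 against 1.55% and 2.17% of all genes. That count was 0 without P2 replicate 1 or P7 replicate 1, 3 without P2 replicate 2 and 2 without P7 replicate 2, with a highest limma adjusted p of 0.115 to 0.249. At this step 41.7% of all genes called were higher with the deposited scaling and 52.3% with TMM scaling. From P2 to P7, 4 of 6 tested erythroid genes (median -4.53) and 4 of 6 mesenchymal markers (median -1.96) were lower. Of 8 tested leukocyte genes 2 were lower and 1 higher. Higher were 2 of 7 tested cell cycle genes and 2 of 10 dissociation stress genes. The part of these lists at either step was not tested.

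From P7 to P28, 5 epithelial members rose and none fell, against 4.87% and 2.41% of all genes. At an unadjusted p under 0.05 limma also had 0 lower members, and edgeR and DESeq2 called 0. Slc16a3 rose by 2.60 (SE 0.35, limma adjusted p = 0.000226), from 5.42 and 8.11 to 43.3 and 47.8. Hk2 rose by 1.22 (SE 0.21), from 43.3 and 45, Epas1 by 1.38, Eno2 by 1.36 and Pfkfb3 by 1.36. Slc16a3 and Hk2 kept their calls without any 1 library. The count was 3 without P7 replicate 1, P7 replicate 2 or P28 replicate 1 and 2 without P28 replicate 2, and the other 3 genes reached a highest limma adjusted p of 0.0578 to 0.213. The 9 leukocyte markers in the epithelial tables summed to 1228 to 1446 at P7, with Ptprc, Coro1a, Fcer1g and C1qb at 0 reads, and to 4139 to 4539 at P28, with none at 0; at E18.5 the sum was 317 to 552. The sum includes Lyz2, which lung epithelium also expresses. Tyrobp, a myeloid gene, was 0.187 and 0 at P7 and 703 and 642 at P28, and Ptprc, which encodes CD45, was 12.4 and 21.3 at P28. Dissociation stress genes summed to 10790 to 18822 at P7 and 21790 to 29466 at P28, with 3 of 10 called higher. Erythroid markers summed to 55.5 to 304 and then 1155 to 1366, with 4 of 6 tested genes higher. Mesenchymal markers summed to 160 to 169 and then 2290 to 2364, with 1 of 6 tested genes higher and 1 lower. The part of leukocyte RNA and of these lists in the P28 epithelial values was not tested.

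**Figure D4:**
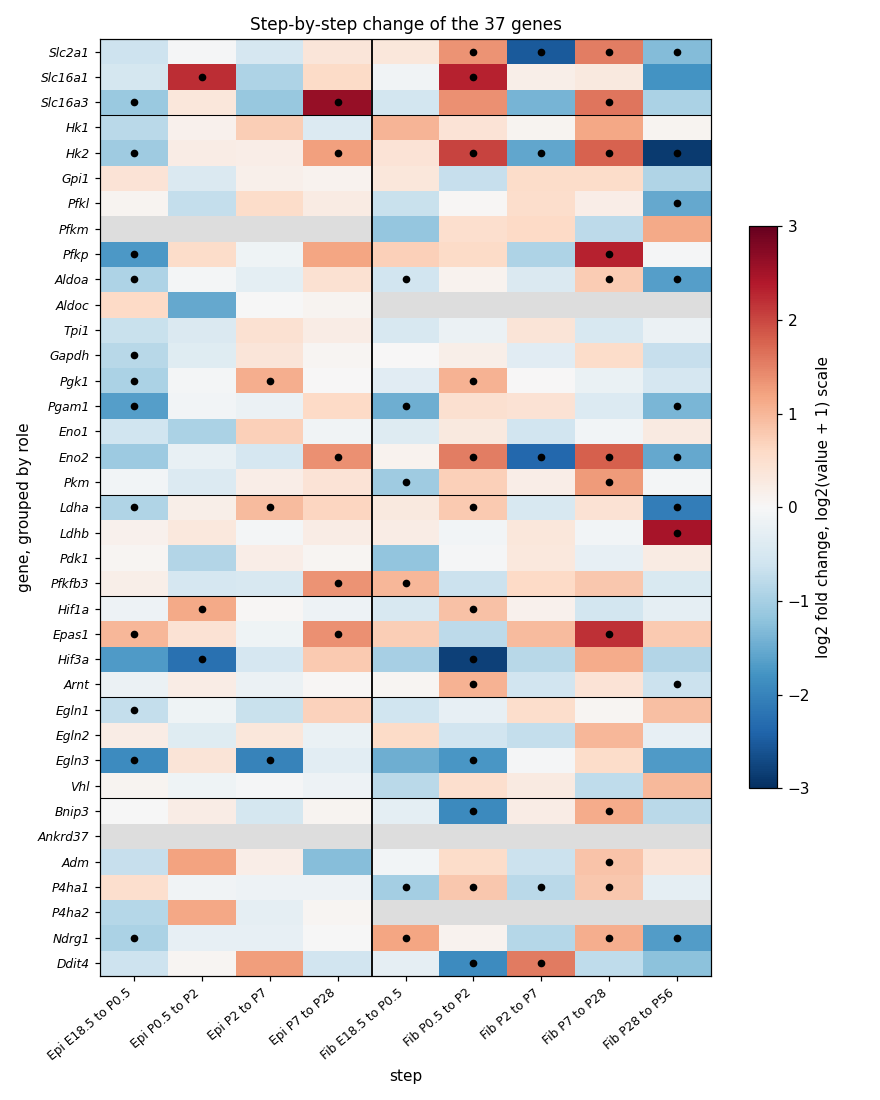
Log2 fold change on the log2(value + 1) scale of the 37 members (rows, grouped by role) at each step between neighbouring stages (columns) in epithelium (Epi) and fibroblasts (Fib). Black dots mark changes past the adjusted threshold, grey cells were not tested and colours end at 3 in either direction; the first column holds most of the epithelial falls, and fibroblast Slc2a1, Hk2 and Eno2 alternate in colour.

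The P56 fibroblast library allows a comparison with P28 that rests on 1 library, assumed to vary like the other groups. There 9 members were lower and 1 higher, against 19.1% and 12.2% of all genes. TMM scaling moved the median change of all genes by 0.18, from -0.12 to 0.06, and the share of higher genes among those called from 39.0% to 51.1%. Hk2 was 33.8 at P56 (change -2.87, SE 0.33), Aldoa 445 against 1173 and 1692 at P28, Ldha 40.1 (change -2.09, SE 0.30), Slc2a1 103, Pgam1 127, Pfkl 14.4, Ndrg1 10.1 and Eno2 8.19. Each of these was below both P28 libraries. Ldhb, the lactate dehydrogenase subunit typical of oxidative tissue, was 14.6 at P56 and 0.886 and 3.19 at P28 (change 2.48, SE 0.65). Ldhb gave 26.7% of the Ldha and Ldhb reads together at P56, where the other fibroblast libraries gave 0.398% to 1.73%. Arnt, with a change of -0.65, was not called with TMM scaling or by edgeR or DESeq2. Without P28 replicate 1 the count was 8 and without P28 replicate 2 it was 10, and Arnt, Ldhb and Ndrg1 reached a highest limma adjusted p of 0.0504 to 0.196. Mesenchymal markers summed to 29063 to 32969 at P28 and 10360 at P56, with 4 of 7 lower and 1 higher. All 3 tested mesothelial markers were lower, and 5 of 10 dissociation stress genes were higher and 2 lower. The part of these was not tested.

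Between the cell types, over the mean of the 5 shared stages on jointly scaled reads, 19 members were higher in epithelium and 6 in fibroblasts, against 32.5% and 29.9% of all genes. Higher in epithelium were P4ha1 (1.78, SE 0.07, limma adjusted p = 4.93e-15), Ldhb (3.75, SE 0.18), Epas1 (2.91, SE 0.17), Slc16a1 (2.88, SE 0.32), Ddit4 (2.18, SE 0.27), Pfkp (1.92, SE 0.19), Pkm (1.87, SE 0.10) and Pdk1, a mitochondrial kinase that inhibits pyruvate dehydrogenase (1.83, SE 0.16). Epithelial Ldhb was 24 to 51.4 over the 10 libraries, and the fibroblast libraries from E18.5 to P28 ranged from 0.711 to 3.19, so the cell types did not overlap. The glycolytic enzymes Tpi1, Gpi1, Hk1, Aldoa, Aldoc, Pgk1 and Gapdh were also higher in epithelium. Higher in fibroblasts were Adm (-3.15, SE 0.22), Pfkfb3 (-1.64, SE 0.14), Arnt (-1.05, SE 0.13), Hk2 (-0.88, SE 0.11), Eno2 (-0.76, SE 0.14) and Pfkm (-0.66, SE 0.19). Slc2a1 (0.01, SE 0.09), Ndrg1 (0.01, SE 0.15) and Hif1a (-0.26, SE 0.12) did not pass. All 25 calls were kept without any 1 of the 20 libraries. In the same comparison 7 of 8 tested leukocyte genes were higher in epithelium. Of 10 dissociation stress genes 7 were higher in fibroblasts and 1 in epithelium. Of 7 tested pericyte and smooth muscle markers 6 were higher in fibroblasts. The part of these lists was not tested.

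**Figure D5:**
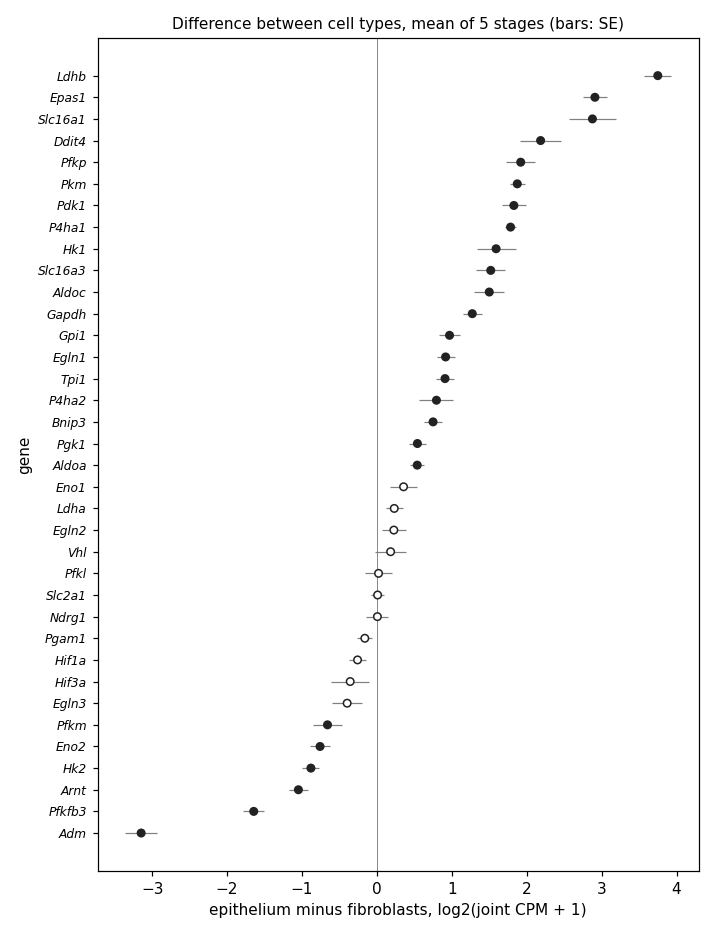
Epithelium minus fibroblasts for 36 members, as the mean over the 5 shared stages of log2(CPM + 1) on jointly scaled reads, with SE bars; filled points passed the adjusted threshold. Ldhb and Epas1 lie farthest to the epithelial side and Adm to the fibroblast side.

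As a share of the reads of an isozyme pair, Ldhb gave 10.3% to 30.2% of the lactate dehydrogenase reads in the epithelial libraries. Hk1 gave 4.05% to 19.9% of the Hk1 and Hk2 reads in epithelium, 0% to 2.76% in fibroblasts up to P28 and 14.3% at P56. Tag levels are not comparable between genes, so these shares, and the Ldhb share given for P56, are not proportions of the isozymes. Both E18.5 fibroblast libraries had no Hk1 read.

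The remaining members passed at no step between neighbouring stages in either cell type. These were Hk1, Gpi1, Tpi1, Eno1, Pdk1, Egln2 and Vhl, and those tested in 1 cell type, Pfkm, Aldoc and P4ha2. Ankrd37, a HIF target, was tested in none, with values from 0 to 3.19.

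Other genes of the same pathways were counted from lists of relatives. Of 18 other glycolysis genes tested in epithelium, 2 rose and 4 fell across birth, where 7.24% of all genes tested were higher and 7.09% lower. The smallest p was that of Bsg, the chaperone that carries lactate transporters to the membrane, with 17990 and 17876 at E18.5 and 6811 and 4540 at P0.5 (change -1.69, SE 0.22, limma adjusted p = 0.000407). Hk3 changed by -2.74, Pklr by -3.12 and Hkdc1 by 2.31. Of 31 other HIF pathway and target genes 2 rose and 3 fell, led by Ndufa4l2, a mitochondrial HIF target, with 7.79 and 13.3 at E18.5 and 0 in all 8 later epithelial libraries. Hif1an, the asparaginyl hydroxylase that inhibits HIF, rose by 1.22, and Gbe1 and Sap30 fell. Of 26 genes of pyruvate entry and the TCA cycle 2 rose and 1 fell. Pdk4, the kinase that spares pyruvate when fat is burned, was 0 and 0.631 at E18.5 and 8.45 and 5.94 at P0.5, and Suclg1 rose by 0.83 and Mpc1 fell by 0.67.

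In fibroblasts 1 of 11 other glycolysis genes passed the threshold across birth, Bsg, which fell from 3951 and 3386 to 2153 and 1791. Of the 31 other HIF genes 6 rose and 4 fell, beside 8.05% and 7.34% of all genes at this step. Among them Rora rose by 1.07 and Wsb1 by 1.08, and Gys1 fell by 2.33. Ndufa4l2 fell by 1.61, from 114 and 59.7 to 25.5 and 27.3. Of 25 pyruvate and TCA cycle genes 1 rose, Pdp1, and 1 fell, Sdhc.

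By P28, 4 of the 31 other HIF genes had risen and 5 fallen in epithelium, and 7 and 7 in fibroblasts. Over all genes the shares were 13.5% and 11.3% in epithelium and 18.7% and 14.9% in fibroblasts. Lox, the collagen cross-linking oxidase, fell in both, from 168 and 162 to 17 and 14.4 in epithelium and from 6430 and 7274 to 881 and 1418 in fibroblasts. In the same epithelial libraries the mesenchymal marker Col1a2 went from 22.7 and 14.5 to 3.48 and 4.32. Of 6 tested mesenchymal markers 5 were lower there and 1 higher. The part of fibroblast RNA in epithelial Lox was not tested. Vegfa, the growth factor for vessels, fell in epithelium from 376 and 511 to 195 and 159, and Kdm3a, a histone demethylase, by 1.48. Tfrc, the transferrin receptor, rose by 1.89. In fibroblasts Rora rose from 73 and 54.6 to 772 and 747, and Arnt2, the neural relative of Arnt, fell from 30.1 and 26 to 0 and 0.399, and Ndufa4l2 fell by 3.13. Of the other glycolysis genes 2 rose and 4 fell in epithelium, led by Slc16a7 (2.48) and Bsg (-1.71), and 1 rose and 2 fell in fibroblasts. Of the pyruvate and TCA cycle genes 5 rose and 2 fell in epithelium, led by Pdk4 (2.28) and Mpc1 (0.93), and 2 rose and 4 fell in fibroblasts, led by Sucla2 (-1.26) and Idh2 (-1.31).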

How the data were processed

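Sorted lung epithelial cells and fibroblasts were profiled by 3′ SAGE sequencing. Bowtie2 2.2.5, R 3.4.0 and mm10 are named in the submitters' processing notes, and normalization steps were not given in the sources used here. The deposited values are a signal: tag counts divided by 1 factor per library. Dividing by the value of 1 read gave whole reads for 100% of values (tolerance 0.01 reads). The main test was limma 3.58.1 (R 4.3.3) on log2(value + 1), keeping genes that reached 3 in 2 or more libraries, with 1 fit per cell type (5 residual degrees of freedom). Cell types were compared on recovered reads of 20004 shared genes as TMM-scaled CPM (10 residual degrees of freedom). On recovered reads edgeR 4.0.16 called 1794 genes across birth in epithelium and 1779 in fibroblasts, and limma 1740 and 1839. DESeq2 1.42.0, other pseudocounts and filters, TMM scaling, a replicate block and leaving out each library were also tried. Values per library are given for members past the threshold from E18.5 to P0.5 or P28, up to 20 by smallest p, and for Hif1a, Epas1 and Egln3; those of Slc16a3 and other genes shown for single steps were added after their values were seen. Relatives named are up to 4 per list with the smallest p; the others named were added after their values were seen. Promoter and gene positions come from RefSeq (GRCm38.p6) and GENCODE M21. The members and lists were chosen with earlier results of these data known. Tests were checked on simulated data. 1 gene of the lists of relatives is not reported here by name.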

Additional observations from a re-analysis of the deposited data

Results flagged for a closer look

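The change across birth differed between epithelium and fibroblasts, by the interaction test in limma, for P4ha1 (1.51), Ndrg1 (-2.14), Hk2 (-1.48) and Pfkp (-2.42), each value being the epithelial minus the fibroblast log2 change. The change from E18.5 to P28 differed for Ndrg1 (-3.06), Hk1 (-3.03), Pfkp (-2.86), Hk2 (-2.17), Eno2 (-1.59), Slc2a1 (-1.57), Gapdh (-1.26) and Pkm (-1.08). Fibroblast Hk1 had 0 reads at E18.5 and Pfkp 5 reads, so the size of their differences depends on the pseudocount. Groups held at most 2 libraries, so no single library could be tested as standing apart within its group.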

How the results depend on the processing

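Of the 134 member calls, 98 were kept under every alternative other than leaving out a library, 69 also without any 1 library, and none reversed direction. All 25 calls between cell types are among the 69. Where 2 groups do not overlap, leaving out 1 library cannot reverse the direction, so the absence of reversals says little. Calls lost numbered 34 with no filter, 5 with edgeR, 15 with DESeq2 and 64 without 1 library. With no filter, member calls became 1 for epithelium P0.5 to P2 (also 1 with DESeq2), 0 for P2 to P7 and 3 for P7 to P28, and 3, 8 and 3 for fibroblasts E18.5 to P0.5, P0.5 to P2 and P2 to P7. Calls over all genes with no filter became 578 and 211 in epithelium (P0.5 to P2, P2 to P7) and 1113, 1254 and 359 in those 3 fibroblast steps. DESeq2 called 1343 genes in the interaction from E18.5 to P28. With no filter more genes were tested; the cause of the other shifts was not tested.

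Without 1 library, member calls ranged over 3 to 7 (epithelium E18.5 to P0.5), 0 to 2 (P0.5 to P2), 0 to 3 (P2 to P7), 2 to 3 (P7 to P28) and 5 to 10 (E18.5 to P28), and in fibroblasts over 2 to 5, 7 to 10, 3 to 5, 9 to 12 and 12 to 16 for the same steps and 8 to 10 from P28 to P56. They were 25 to 27 between cell types, 1 to 5 in the birth interaction and 5 to 8 in that to P28. All-gene calls ranged over 616 to 1118, 109 to 775, 140 to 431, 406 to 566 and 1838 to 2347 in epithelium. In fibroblasts they ranged over 676 to 1354, 789 to 1129, 262 to 514, 1548 to 2032, 2901 to 3367 and 2836 to 3001. They were 8014 to 8314 between cell types, 149 to 448 and 1462 to 1714 in the interactions.

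Within a cell type, libraries with the same replicate number showed little shared deviation over all tested genes together. A correlation over all genes cannot exclude a link in some of them. Same-numbered deviations correlated at -0.06 to 0.07 in epithelium and -0.04 to 0.04 in fibroblasts, with 0 of 10 pairs over 0.1 in each. Pairing of epithelial with fibroblast libraries of the same stage and number was not tested, and the joint fits treated them as independent. The erythroid gene Hbb-bs was higher in replicate 2 than in replicate 1 at every shared stage in both cell types. At P2 it was 929 and 3326 in epithelium and 970 and 1868 in fibroblasts. A replicate block gave 1797 genes across birth in epithelium and 1827 in fibroblasts, and 1 member call was lost, Hif3a in epithelium from P0.5 to P2 (adjusted p = 0.0513). At this depth, members with values near 3 reads, such as fibroblast Epas1, Hk1 and Pfkp before P28, cannot be ranked between stages.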
